A study of Homo sapiens with 2 samples.

Results

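The genes described here encode 9 proteins of the endoplasmic reticulum (ER) that fold proteins or assist folding and degradation there, and the transcription factor XBP1. They are HSPA5, HSP90B1, PDIA4, CALR, SDF2L1, HYOU1, MANF, CRELD2, HERPUD1 and XBP1, taken by symbol from the deposited gene tables and joined by gene identifier. All 10 had a value in both libraries, out of 18786 gene symbols with a value in both, and all 10 passed the filter on low values (12342 genes with a mean of at least 1 FPKM). A549, the cells sequenced, is an established line of human lung adenocarcinoma. The vector library came from cells with a stably integrated retroviral vector alone, and the ATOH8 library from cells given ATOH8, a gene for a transcription factor of the basic helix-loop-helix class, by stable retroviral transduction. Both cultures thus carried a retroviral insertion, and the promoter driving ATOH8 and whether each line was a pool or a clone were not given in the sources used here. There was 1 library per group, so each value below is a single measurement without a replicate error, and differences compare these libraries rather than the conditions.

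The ER lumen folds secreted and membrane proteins. When unfolded proteins accumulate there, the unfolded protein response raises transcription of ER chaperones through the membrane sensors IRE1 (gene ERN1), PERK (EIF2AK3) and ATF6. IRE1 splices the XBP1 mRNA to a form that encodes the active factor, and cleaved ATF6 and XBP1 act on a promoter sequence called the ER stress response element (ERSE) and on its shorter variant ERSE-II. HSPA5 encodes BiP, the ER member of the HSP70 family, which is the classical readout of this response. The values here are per gene, so spliced and unspliced XBP1 mRNA were not told apart.

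The promoter windows of these genes are shown first. The unfolded protein response acts on ER chaperone genes through ERSE, and the set was named largely for such genes. The motif counts therefore describe the set and are not independent of how it was chosen. RefSeq promoter windows (GRCh38.p14, 250 bases before to 50 after each transcription start, 300 bases in all) were found for 10 of 10 genes and searched on both strands for 3 motifs, ERSE, ERSE-II and the unfolded protein response element, TGACGTGG. ERSE is CCAAT and CCACG with any 9 bases between them, and ERSE-II is ATTGG and CCACG with any 1 base between them, so both contain the letters CCACG. ERSE was found in 27 of 35116 windows (0.0769%) and ERSE-II in 19 (0.0541%), whereas 5 of the 10 genes held ERSE and another 3 held ERSE-II. The matches are printed 5′ to 3′ on the strand of the gene in stretches of 29 bases, with the motif in capitals. A motif on the opposite strand therefore starts with CGTGG.
HSPA5: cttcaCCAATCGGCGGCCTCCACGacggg
XBP1: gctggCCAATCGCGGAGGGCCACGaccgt
HSP90B1, upstream match: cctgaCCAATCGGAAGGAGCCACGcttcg
HSP90B1, downstream match: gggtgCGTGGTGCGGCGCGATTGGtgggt
CALR: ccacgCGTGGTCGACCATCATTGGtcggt
CRELD2: cctctCGTGGCGAACTCGGATTGGgccat
HYOU1, upstream match: gccccgtgaCGTGGTCCAATcccaggccg
HYOU1, downstream match: ggcctgggaCGTGGTCCAATgagtacgcg
SDF2L1: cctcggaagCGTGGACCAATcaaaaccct
HERPUD1: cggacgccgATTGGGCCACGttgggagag

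The stretches lie at chr9:125241386-125241414 (HSPA5, minus strand), chr22:28800598-28800626 (XBP1, minus strand), and chr12:103930211-103930239 and chr12:103930316-103930344 (HSP90B1, plus strand). Those of CALR and CRELD2 lie on the plus strand at chr19:12938379-12938407 and chr22:49918549-49918577. The ERSE-II stretches lie at chr11:119057371-119057399 and chr11:119057265-119057293 (HYOU1, minus strand), chr22:21642105-21642133 (SDF2L1, plus strand) and chr16:56932016-56932044 (HERPUD1, plus strand). The matches began between 52 bases (XBP1) and 225 bases (CALR) before the transcription start. XBP1 had a further window at another start, and this one held no match. PDIA4 (2 windows) and MANF (1 window) held neither motif exactly, and MANF held 1 copy of ERSE-II with 1 mismatch. HSP90B1 held 4 copies of ERSE when 1 mismatch was allowed, 2 of them exact, while ERSE with at most 1 mismatch occurred in 1.55% of all windows. The upstream HYOU1 match overlapped a match of the unfolded protein response element, which was present in 0.729% of all windows and in the window of no other gene of the set. A match describes letters in a window, and binding was not measured.

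The whole 250 bases before the HSPA5 start (chr9:125241344-125241593, minus strand, GRCh38.p14) are printed because HSPA5 is the gene of the set that stood furthest below the vector library. The exact ERSE is in capitals.
HSPA5 promoter: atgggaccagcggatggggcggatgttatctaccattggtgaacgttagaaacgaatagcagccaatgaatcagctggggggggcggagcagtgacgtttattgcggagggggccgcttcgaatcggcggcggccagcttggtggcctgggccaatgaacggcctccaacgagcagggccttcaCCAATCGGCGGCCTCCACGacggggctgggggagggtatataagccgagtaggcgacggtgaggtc

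The FPKM, which scale fragments by transcript length and by the total of the library, summed to 540101 over 20966 genes for the vector and to 502502 over 20870 genes for ATOH8. Read depth is unknown, so values carry no counting interval. ATOH8 was at 0.786 FPKM with the vector and at 182 FPKM with ATOH8, which matches the labels. The epithelial keratins KRT8 and KRT18 lay between 2012 and 2486 FPKM in both libraries, whereas EPCAM was at 1.70 and 2.23 FPKM and KRT19 was under 1 FPKM in both (0.219 and 0.0700). Of 6 markers of leukocytes, endothelium and fibroblasts, PTPRC, PECAM1 and VWF were listed in the ATOH8 table alone, the highest at 0.0510 FPKM. LUM, DCN and PDGFRB lay between 0.00795 and 0.332 FPKM over both tables. Folds are differences of log2(FPKM + 1), ATOH8 minus vector, and the pseudocount of 1 FPKM understates the change of low genes. The median fold of genes averaging at least 5 FPKM was -0.36, and folds are given relative to this median gene unless they are called folds as deposited. A gene is said to lie past 2-fold, on the higher or the lower side, when its fold on the stated scale is 2 or more.

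On this scale the 10 genes were spread to both sides of the median gene and did not move as a block. In a bulk library, less RNA per cell and fewer cells with that RNA cannot be told apart. None of the 10 lay past 2-fold (0 on the higher side, where 12.8% of all genes lay, and 0 on the lower side, where 9.46% lay). In a set of 10 genes, a count of 0 is close to such shares. The shares also include genes down to a mean of 1 FPKM, whereas all 10 genes averaged at least 5 FPKM. Their median log2 fold was 0.06, beside 0.06 over all 12342 genes. The genes were split evenly, 5 above the median gene and 5 below it, from -0.55 for HSPA5 to 0.66 for CRELD2, a spread of 1.22 on the log2 scale. The middle 50% of all genes ran from -0.47 to 0.61 and took in 7 of the 10. HSPA5 and HSP90B1 lay below that range and CRELD2 above it. As deposited, 6 of the 10 were lower and 4 higher in the ATOH8 library with a median of -0.30, beside -0.30 over all genes, of which 64.7% were lower. As deposited, too, 0 of 10 lay past 2-fold on the higher side (6.24% of all genes) and 0 on the lower side (19% of all genes).

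**Figure D1:**
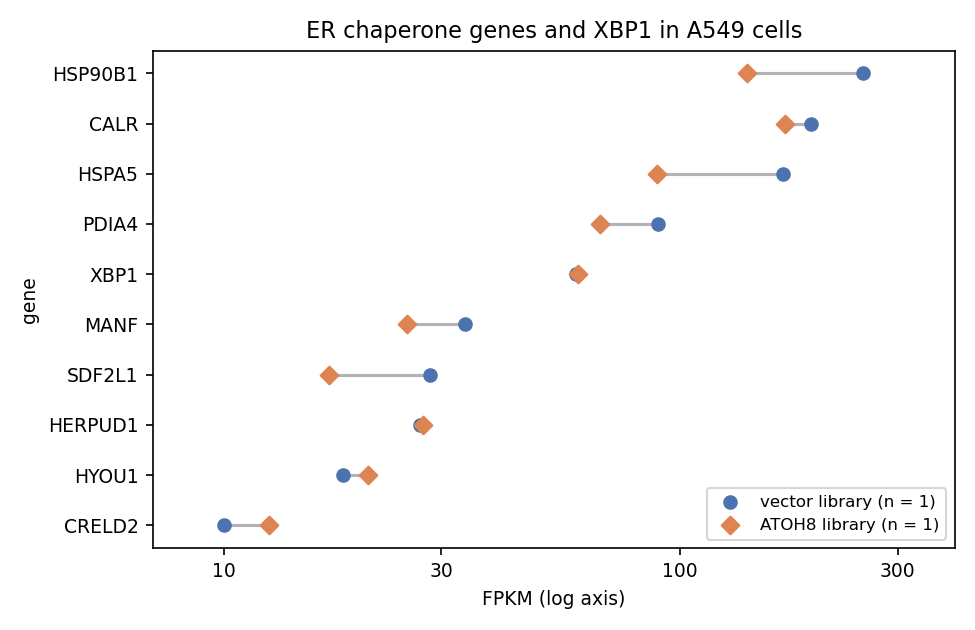
FPKM of each gene (log axis) in the vector library (circles) and the ATOH8 library (diamonds), 1 library each, joined by a line and ordered by the vector level. HSPA5, HSP90B1 and SDF2L1 have the longest lines to lower values, XBP1 and HERPUD1 have nearly the same value in both, and CRELD2 and HYOU1 are higher in the ATOH8 library.

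HSPA5 and HSP90B1 were the members furthest below the median gene on this scale. HSPA5 (ENSG00000044574, chromosome 9, 125234853 to 125241330, minus strand, GENCODE 29, GRCh38) was at 168 FPKM with the vector and 88.8 FPKM with ATOH8, 0.528 times the vector level. Its log2 fold was -0.91 as deposited and -0.55 relative to the median gene, and 78.2% of genes had a higher fold. HSP90B1, which encodes GRP94, the ER form of HSP90 (chromosome 12, 103930107 to 103953645, plus strand), was at 251 and 140 FPKM. Its log2 fold was -0.48, close to that of HSPA5, so the ratio of HSP90B1 to HSPA5 was 1.49 in the vector and 1.58 in the ATOH8 library. HSP90B1 was the highest of the 10 in the vector library, and in the ATOH8 library CALR was. The file's locus for HSP90B1 also covered C12orf73 (7.54 and 9.04 FPKM) and TTC41P (0.576 and 0.325 FPKM), so the authors' estimates could have split reads among them.

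CALR, which encodes the calcium-binding lectin chaperone calreticulin (chromosome 19, 12938578 to 12944489, plus strand), was at 194 FPKM with the vector and 170 FPKM with ATOH8. Its log2 fold was 0.17, and -0.19 as deposited, so its direction depended on the scale. The ratio of HSPA5 to CALR was 0.866 in the vector and 0.522 in the ATOH8 library. PDIA4, a disulfide isomerase of the ER (chromosome 7, 149003062 to 149028641, minus strand), was at 89.4 and 66.6 FPKM with a log2 fold of -0.06. HYOU1, which encodes GRP170, a large HSP70-like protein that exchanges nucleotide on BiP (chromosome 11, 119044189 to 119057202, minus strand), was at 18.3 and 20.7 FPKM. It was higher in the ATOH8 library by 0.17 as deposited and by 0.53 relative to the median gene, the opposite direction to HSPA5. The ratio of HSPA5 to HYOU1 was 9.19 in the vector and 4.29 in the ATOH8 library. The locus of HYOU1 was shared with the non-coding gene RP11-110I1.6 (3.03 and 3.74 FPKM), and GENCODE 29 places an antisense gene, AP003392.3, there. The strand setting of the counting was not stated, so reads of both strands may have been mixed.

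The smaller ER proteins were also divided. SDF2L1, which works with ER J-domain proteins on BiP (chromosome 22, 21642261 to 21644298, plus strand), was at 28.3 FPKM with the vector and 17.0 FPKM with ATOH8, with a log2 fold of -0.34. MANF, an ER-resident protein that can be secreted as a neurotrophic factor (chromosome 3, 51385047 to 51389397, plus strand), was at 33.8 and 25.2 FPKM with a log2 fold of -0.05. CRELD2, a secreted cysteine-rich protein with EGF-like domains (chromosome 22, 49918167 to 49927540, plus strand), was at 10.0 and 12.6 FPKM. Its log2 fold of 0.66 was the highest of the set, and 22.8% of genes had a higher fold. SDF2L1 and CRELD2 therefore lay on opposite sides of the median gene, and MANF lay on it. CRELD2 was the lowest of the 10 genes in both libraries, and its locus in the files also covered ALG12, a mannosyltransferase of the ER, and the transcript CITF22-1A6.3 (0.613 and 0.619 FPKM).

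ALG12 and CRELD2 are neighbours on opposite strands, and the ERSE printed for CRELD2 at chr22:49918554-49918572 lies in the windows of both. It begins 80 bases before the RefSeq start of CRELD2 and 134 bases before that of ALG12. ALG12 was at 3.95 FPKM with the vector and 4.70 FPKM with ATOH8, with a log2 fold of 0.56. Both neighbours were thus higher in the ATOH8 library, and since they share a locus in the files, their estimates may not be independent.

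HERPUD1 and XBP1 had nearly the same FPKM in both libraries. HERPUD1 encodes an ER membrane protein with a ubiquitin-like domain that takes part in ER-associated degradation (chromosome 16, 56932048 to 56944863, plus strand). It was at 26.9 FPKM with the vector and 27.4 FPKM with ATOH8, a log2 fold of 0.02 as deposited and 0.38 relative to the median gene. The files placed 2 low transcripts, RP11-325K4.2 and RP11-325K4.3, at the same locus. XBP1 (ENSG00000100219, chromosome 22, 28794555 to 28800597, minus strand) was at 59.3 and 59.6 FPKM, with a log2 fold of 0.01 as deposited and 0.37 relative to the median gene. The HERPUD1 to XBP1 ratio was 0.454 in the vector and 0.459 in the ATOH8 library, while that of HSPA5 to XBP1 was 2.84 and 1.49.

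In level, the order in the vector library was HSP90B1, CALR, HSPA5, PDIA4, XBP1, MANF, SDF2L1, HERPUD1, HYOU1 and CRELD2. In the ATOH8 library it was CALR, HSP90B1, HSPA5, PDIA4, XBP1, HERPUD1, MANF, HYOU1, SDF2L1 and CRELD2. With 1 library per group, neither order carries an error, and differences between neighbours were not tested. The summed FPKM of the 10 genes was 879 in the vector and 629 in the ATOH8 library. HSP90B1, CALR and HSPA5 made up 69.8% of this sum in the vector library and 63.5% in the ATOH8 library. Mitochondrially encoded genes made up 16.5% and 24.2% of the summed FPKM, with MT-CO1 listed in the vector table alone. Without these genes in the total, the set took 0.195% of the FPKM in the vector and 0.165% in the ATOH8 library.

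Folds in these libraries moved with base composition. Over 12313 genes (genes are no independent replicates) the Spearman correlation of the fold as deposited with the GC content of the longest GENCODE 29 transcript was 0.55 and the Pearson correlation 0.51. A correction that subtracts this trend was therefore run beside the main scale. For HSP90B1, MANF, CRELD2 and XBP1 the longest transcript is not a protein-coding one, so the correction was repeated with the longest protein-coding transcript, an alternative added after seeing the data. The 2 versions are given in that order below.

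HSPA5 stayed below the median gene at -0.44 and -0.40. HSP90B1, the most AT-rich gene of the set (41.2% and 42.4% GC), no longer lay beside it and came to 0.04 and -0.04. SDF2L1, the most GC-rich gene (65.5% GC), moved to -0.91 in both and became the lowest of the set. XBP1 moved to 0.86 with a retained-intron transcript of 41.5% GC, but to 0.29 with its coding transcript of 50.1% GC, so its place at the top of the set rested on the transcript chosen. CALR lay at -0.09 and -0.07, PDIA4 at -0.29 and -0.27, and MANF at -0.22 and -0.30. HYOU1 (0.23 and 0.25), CRELD2 (0.38 and 0.21) and HERPUD1 (0.38 and 0.41) stayed above.

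With the longest transcripts the set was again evenly split, with a median of -0.02 beside 0.09 over all genes, and with the coding transcripts 4 of the 10 lay above and the median was -0.05. Again 0 of 10 lay past 2-fold on the higher side (9.88% of all genes with the longest transcripts) and 0 on the lower side (4.75%). The correction thus changed the order within the set and left each gene within 2-fold of the median gene. HSPA5, SDF2L1, PDIA4 and MANF were below, and CRELD2, HYOU1, HERPUD1 and XBP1 above, on the main scale and on both corrected scales. GC-corrected values of other genes below use the longest transcript.

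**Figure D2:**
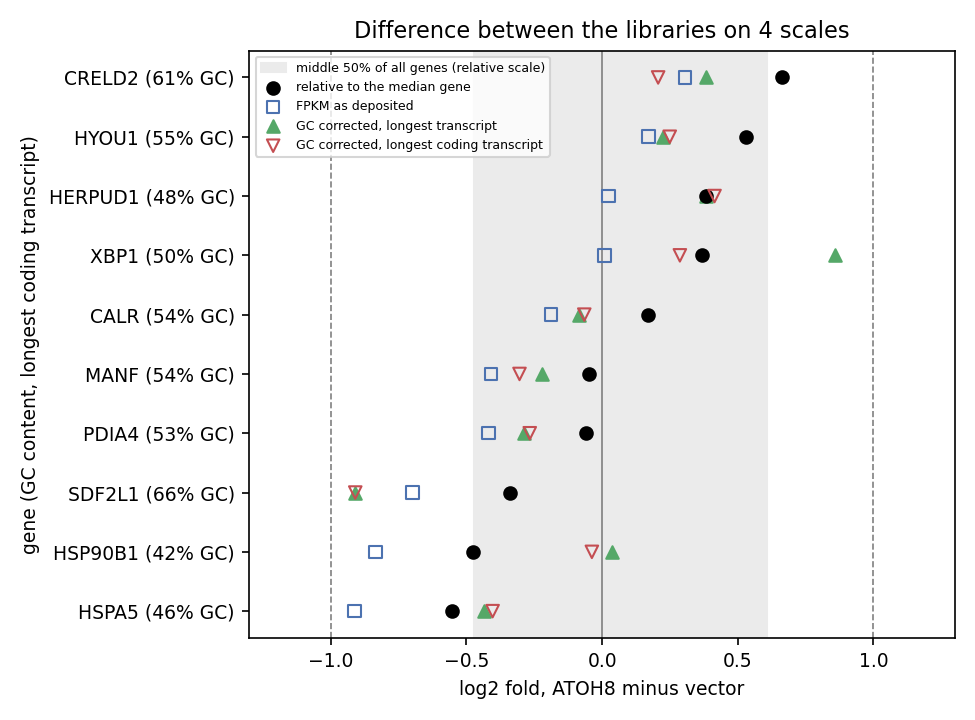
Log2 fold of each gene on 4 scales, with the GC content of its longest coding transcript in brackets. Filled circles are relative to the median gene, squares are the FPKM as deposited, upward and downward triangles are corrected for the GC content of the longest and the longest coding transcript, dashed lines mark 2-fold, and the grey band is the middle 50% of all genes on the main scale (-0.47 to 0.61). No symbol passes a dashed line, and the 2 triangles of XBP1 (0.86 and 0.29) lie furthest apart.

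In the authors' deposited table of 2747 genes, 0 of the 10 genes appeared, where 19.9% of the 12342 genes did (5.16% marked up and 14.7% marked down). The smallest absolute log2 ratio in the authors' deposited table was 1.00, and the largest among the 10 genes, that of HSPA5 without a pseudocount, was 0.92. The ratios of all 10 genes thus lay under the smallest in that table. Its p-values were computed between these same 2 libraries.

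Related genes outside the set, several of them for chaperones of the cytosol or mitochondria, were listed beside them. The list held 14 genes, 13 of which passed the filter, and CALR3, a testis relative of CALR, was listed in the vector table alone (0.0544 FPKM). Of the 13, 4 lay past 2-fold on the lower side and 1 on the higher side, and their median was -0.68. After the GC correction HSPA8 (-0.95) and CRELD1 (0.98) no longer lay past 2-fold, while HSPA1A (-1.13) and CDNF (1.19) did. HSP90AA1, the inducible cytosolic HSP90, was at 794 FPKM with the vector and 97.7 FPKM with ATOH8 (-2.65). Its ER counterpart HSP90B1 went from 0.316 times its level to 1.44 times its level. The other cytosolic HSP90 gene, HSP90AB1, was at 878 and 561 FPKM (-0.29), and the mitochondrial TRAP1 at 95.4 and 72.4 FPKM (-0.03). HSP90B1 lay below both of these, and above both after the GC correction.

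The 4 HSP70 relatives of HSPA5 were below the median gene, HSPA13 no longer so after the GC correction (0.16). HSPA8, the constitutive cytosolic HSP70, was at 1218 and 472 FPKM (-1.01), and HSPA9, the mitochondrial form, at 210 and 94.7 FPKM (-0.78). HSPA1A, the inducible cytosolic form, was at 125 and 60.3 FPKM (-0.68), and HSPA13, a microsomal form, at 10.1 and 4.37 FPKM (-0.69). HSPA5 at -0.55 lay between 0.13 and 0.45 above each of these 4 on the log2 scale, and 0.59 below HSPA13 after the GC correction. HSPA1A has a nearly identical neighbouring copy and HSPA8 has processed copies in the genome, so their estimates are uncertain. For HYOU1 the contrast was wide. HSPH1, the cytosolic HSP110 that serves HSP70 as HYOU1 serves BiP, was at 66.4 and 9.97 FPKM (-2.26), and its relative HSPA4 at 108 and 25.2 FPKM (-1.70). HYOU1 was 2.79 above HSPH1 and 2.23 above HSPA4 on the log2 scale, and 1.88 and 1.53 above them after the GC correction.

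Among the smaller relatives, SDF2, which resembles SDF2L1, was at 36.7 and 27.2 FPKM (-0.06), and HERPUD2 was at 7.36 and 8.20 FPKM (0.50). CRELD1, the membrane-bound relative of CRELD2, was at 4.33 and 9.46 FPKM (1.33). Of the 13 relatives, the authors' deposited table marked 1 up, CRELD1, and 4 down, HSP90AA1, HSPA8, HSPH1 and HSPA4. CDNF, the relative of MANF, was near the filter at 0.880 and 1.59 FPKM (0.82). Over the 13 pairs of a member with a relative, the member had the higher fold in 7 and the lower in 6. After the GC correction the member was higher in 8. The pairs are not independent, since HSPA5, HSP90B1 and HYOU1 each recur in several, and all of the 7 involve 1 of these genes.

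**Figure D3:**
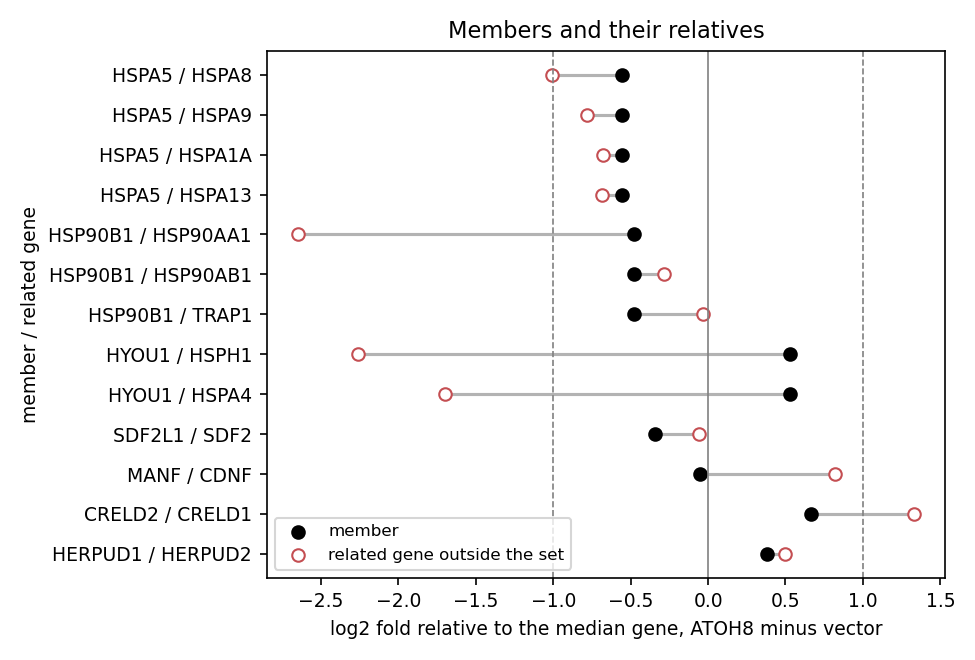
Log2 fold relative to the median gene of each member (filled circles) and of a related gene outside the set (open circles), 1 pair per row, with dashed lines at 2-fold. The gaps between HYOU1 and HSPH1 (2.79), HYOU1 and HSPA4 (2.23) and HSP90B1 and HSP90AA1 (2.18) are the widest.

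Other genes of the ER and of the unfolded protein response were described with 13 lists holding 133 genes, of which 130 passed the filter. Past 2-fold lay 11 (8.46%) on the higher and 10 (7.69%) on the lower side, beside 12.8% and 9.46% of all genes, and the median was 0.02. The authors' deposited table marked 2 of the 130 up and 12 down, beside 5.16% and 14.7% of all genes. List medians ran from -0.19 to 0.81. As deposited, 3 lay past 2-fold on the higher and 20 on the lower side, so the centring set this balance. After the GC correction 6 were higher (QSOX1, SSR2, KDELR3, ITPR3, STIM1 and CREB3L2) and 3 lower (UFD1L, FKBP11 and CHAC1), so most genes named below as past 2-fold were not past it on that scale. The median GC content was 39.0% for the 10 lower and 54.8% for the 11 higher genes, beside 48.5% over all genes.

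Sensors were represented by 6 genes with their processing proteases (median 0.25, 1 past 2-fold on the higher and 0 on the lower side). ERN1, which encodes the XBP1-splicing sensor IRE1, was at 2.69 FPKM with the vector and 5.25 FPKM with ATOH8 (1.12), and at 0.98 after the GC correction. EIF2AK3, which encodes PERK, was at -0.37 and ATF6 at 0.17, and at -0.13 and 0.67 after the GC correction. MBTPS1 and MBTPS2, the proteases that cleave ATF6 in the Golgi, were at 0.67 and -0.47, and at 0.52 and 0.33 after the GC correction. Of 11 genes of the PERK and ATF4 arm, 0 lay past 2-fold (median 0.23). CHAC1, a glutathione-degrading enzyme induced by ATF4, was at 4.58 and 1.21 FPKM (-0.98) and came to -1.48 after the GC correction. NUPR1 was at 4.43 and 1.38 FPKM (-0.83). CEBPB was at 65.4 and 80.7 FPKM (0.66), and DDIT3, which encodes CHOP, at 3.71 and 3.81 FPKM (0.39). After the GC correction CEBPB came to 0.08 and DDIT3 to 0.30. The 3 measured ER-directed bZIP factor genes of 5 had a median of 0.81. CREB3L2 was at 5.04 and 17.7 FPKM (1.99, and 1.98 after the GC correction), while CREB3L4 was at 0.81 and CREB3 at 0.19. The correction put CREB3L4 at 0.57 and CREB3 at -0.16.

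Partners of BiP and of the isomerases differed among themselves. Of 7 J-domain and nucleotide exchange genes (median -0.13), 2 lay past 2-fold on the lower and 1 on the higher side. DNAJB11, a luminal J-domain partner of BiP that also binds SDF2L1, was at 40.0 and 12.9 FPKM (-1.20). DNAJC10 was at 32.2 and 10.6 FPKM (-1.15). SIL1, the other nucleotide exchange factor of BiP beside HYOU1, was at 12.8 and 21.3 FPKM (1.05). None of these 3 passed 2-fold after the GC correction (-0.47, -0.41 and 0.64). Of 15 disulfide isomerase and oxidase genes (median 0.16), 2 were past 2-fold lower, TMX1 (37.6 and 9.19 FPKM, -1.56) and TMX3 (-1.02), and 1 higher, QSOX1 (20.0 and 39.1 FPKM, 1.29). After the GC correction these came to -0.72, -0.23 and 1.00. The 7 genes of the calnexin cycle and glycan trimming had a median of 0.17 and none past 2-fold, with MAN1B1 (0.99), PRKCSH (0.83) and GANAB (0.41) furthest out. Of 7 ER prolyl isomerase genes (median -0.02), FKBP11 lay past 2-fold lower (15.0 and 3.71 FPKM, -1.41, and -1.58 after the GC correction), while FKBP9 was at 0.92 and FKBP10 at 0.84.

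Degradation, entry and exit genes lay near the median gene as lists. The lists of KDEL receptors and the COPI coat (median 0.39) and of ER calcium (median 0.24) lay above it. Of 17 measured genes of ER-associated degradation of 18 listed, the list of HERPUD1's partners (median -0.19), the ubiquitin ligase gene SYVN1 was among those past 2-fold on the higher side (9.48 and 16.9 FPKM, 1.13, and 0.79 after the GC correction). UFD1L, a cofactor of the segregase VCP, lay past 2-fold lower (40.5 and 14.4 FPKM, -1.07, and -1.02 after the GC correction). Of 16 translocon and signal peptidase genes (median -0.11), 3 lay past 2-fold lower, SEC11C (-1.31), SSR1 (-1.11) and SEC62 (-1.08), and SSR2 lay past 2-fold higher (1.09). The GC correction left these 3 within 2-fold (-0.72, -0.55 and -0.31) and put SSR2 at 1.27. The 9 oligosaccharyltransferase genes (median -0.06) and the 12 COPII coat genes (median -0.11) had 0 past 2-fold in either direction. Furthest out were STT3B (-0.63), DDOST (0.52) and OSTC (-0.37), and SEC24D (0.80), SAR1B (-0.74) and SEC23A (-0.74). After the GC correction STT3B, DDOST and OSTC came to -0.15, 0.25 and 0.23, and SEC24D, SAR1B and SEC23A to 0.95, -0.07 and 0.01. Of 10 genes of the KDEL receptors and COPI coat (median 0.39), KDELR3 lay past 2-fold higher (6.52 and 13.3 FPKM, 1.29, and 1.44 after the GC correction). KDELR1 was at 186 and 289 FPKM (0.99, and 0.71 after the GC correction) and COPB1 at -0.79 (-0.25 after it). KDEL receptors return luminal chaperones such as BiP and GRP94 to the ER. Of 10 ER calcium genes (median 0.24), 3 lay past 2-fold higher, ITPR3 (1.54), STIM1 (1.39) and ATP2A3 (1.31), and RCN2 lay past 2-fold lower (-1.09). With the GC correction ITPR3 (1.11) and STIM1 (1.05) stayed past 2-fold, and ATP2A3 (0.78) and RCN2 (-0.56) did not.

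**Figure D4:**
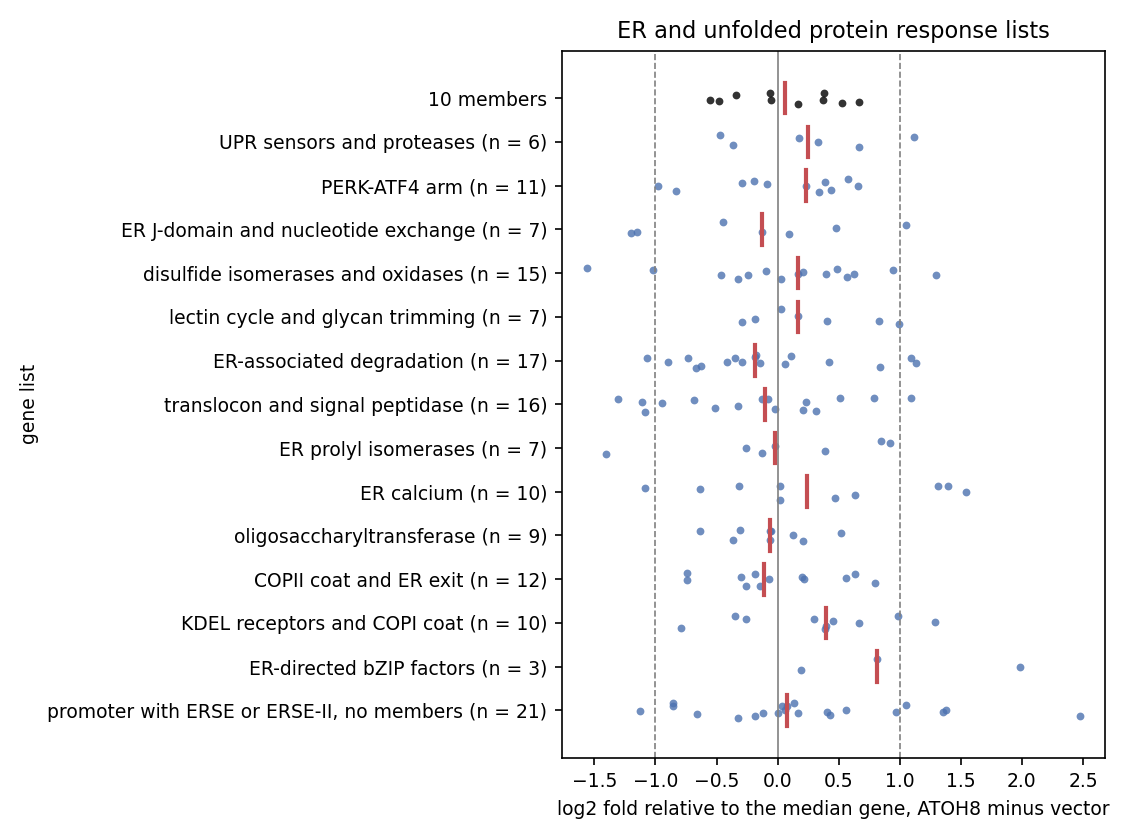
Log2 fold relative to the median gene for the 10 members, for 13 lists of other ER and unfolded protein response genes, and for the 21 other measured genes with ERSE or ERSE-II in their promoter window. Each point is a gene, spread vertically for visibility, red bars are medians and dashed lines mark 2-fold. The members lie between -0.55 and 0.66. Of the 13 lists, 9 have points past a dashed line. Of all genes, 12.8% lie past the line on the higher and 9.46% on the lower side.

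Genes with the same promoter motif as the members were taken from all windows by sequence alone. There were 44 symbols with ERSE or ERSE-II (46 windows, 0.131% of all), and 29 of them passed the filter, 8 of these being members. The 5 members with ERSE had log2 folds from -0.55 to 0.66, and the 3 with ERSE-II from -0.34 to 0.53. The members without either motif, PDIA4 and MANF, lay at -0.06 and -0.05. Holding the element thus went with values on both sides of the median gene. The 21 other genes with a motif had a median of 0.08, with 4 past 2-fold on the higher (19.0%) and 1 on the lower side (4.76%), beside 12.8% and 9.46% of all genes. Among them were further ER genes, chosen for mention after their values were seen. CANX, which encodes the lectin chaperone calnexin, was at 226 and 155 FPKM (-0.18), PDIA6 at 179 and 111 FPKM (-0.33), ERO1B at 3.35 and 2.80 FPKM (0.16), SERP1 at 49.8 and 40.8 FPKM (0.08) and FICD, the enzyme that AMPylates BiP, at 1.53 and 1.61 FPKM (0.40). All 5 lay within 2-fold of the median gene. The calcium-binding protein gene NUCB1 was at 67.7 and 138 FPKM (1.38, and 0.92 after the GC correction). The other genes past 2-fold higher were SYNPO (2.48), TMEM120A (1.35) and GYS1 (1.05), and SHCBP1 (-1.12) was past 2-fold lower. After the GC correction these came to 2.06, 0.93, 0.64 and -0.77.

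By distance in the pair of log2(FPKM + 1) values over the 2 libraries, the genes nearest to HSPA5 were PRELID1 (162 and 91.1 FPKM), NOP10 (171 and 95.4 FPKM) and RBMX (156 and 90.3 FPKM), at distances of 0.06 to 0.11. Those nearest to XBP1 were DOK4 (58.1 and 61.9 FPKM), UBXN1 (56.5 and 58.2 FPKM) and GALNT10 (56.4 and 60.9 FPKM), at 0.06 to 0.08. A pair of values is a weak measure of likeness, and none of the other 9 members was among the nearest genes of either.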

How the data were processed

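RNA sequencing of 2 A549 libraries was used, grouped by the treatment label. Per the file headers, the authors deposited FPKM for each library by gene. The submitters' processing notes name CASAVA, HISAT2, Cufflinks 2.2.1 and hg38 (GRCh38) without roles. The annotation, strand setting and depth were not given in the sources used here. The authors also deposited a table of log2 ratios, p-values and q-values for 2747 genes, per the file headers, and 2 columns of FPKM in it, whose names fit neither sample, stayed unused.

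The tables were merged on the gene identifier, and FPKM were added up within a symbol (python 3.11.15, pandas 2.3.3). Genes listed in 1 table only (2154 and 2058) have no fold. No test was run, since 1 library per group gives no spread, and a 2-fold rule of size was used. GC content came from the longest GENCODE 29 transcript, coding or not (99.8% of tested genes), with a lowess of fraction 0.3 (statsmodels 0.14.6), and residuals were centred like the main folds (median of genes averaging 5 FPKM or more). Promoter windows are RefSeq's. Fold estimation and motif search were tested on simulated data. The members and lists were chosen with earlier results of these data known, and the motif comparison was added after seeing the files. Named genes were the members, their relatives, the 3 list genes with the largest absolute fold, the 3 genes nearest to HSPA5 and XBP1, and others said to be past 2-fold. EIF2AK3, ATF6 and DDIT3 were also named, chosen after their values were seen. A gene that this rule names is not reported here.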

Additional observations from a re-analysis of the deposited data

How the results depend on the processing

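The 11 alternatives changed the pseudocount (0.1, 5), the filter (none, 5 FPKM), the scaling (FPKM as deposited, TPM, upper quartile scaling, a total lacking mitochondrially encoded genes, all uncentred), the base composition (the GC correction with the longest transcript or, added after seeing the data, the longest protein-coding transcript) or the rows (the highest of a shared symbol). Under each, 0 of the 10 genes lay past 2-fold on either side. Of all genes, 6.24% lay past it on the higher and 19% on the lower side as deposited. After the GC correction with the longest transcript, 9.88% and 4.75% did. For the other alternatives the share of all genes is not given, so the 0 of 10 there stands without a comparison. The median of the 10 ran from -0.30 to 0.08, beside -0.30 to 0.27 over all genes. All 110 values of single genes moved by less than 1.5-fold (0.58 on the log2 scale). This bound is wider than the main fold of every gene of the set but CRELD2, so it is a loose one. The filter and row alternatives left all 10 genes at their main values, since each had 1 row and the centre was set before the filter. They therefore add nothing on the stability of these genes. The widest ranges were those of XBP1 (0.01 to 0.86), HSP90B1 (-0.84 to 0.04) and SDF2L1 (-0.91 to -0.32). HSPA5 ran from -0.91 to -0.40 and CRELD2 from 0.21 to 0.71. CALR changed sign in 4 of 11 alternatives and HSP90B1 in 1, the GC correction with the longest transcript, and the other 8 genes in 0. No list median moved by 1.5-fold, but 6 of the 13 changed sign under each GC correction, 5 with FPKM as deposited or TPM, and 0 or 1 under the others. With the longest transcript these were the PERK and ATF4 arm (0.23 to -0.11), J-domain and exchange genes (-0.13 to 0.31), the translocon (-0.11 to 0.13), prolyl isomerases (-0.02 to 0.41), oligosaccharyltransferase (-0.06 to 0.23) and COPII (-0.11 to 0.12). No paired analysis was possible because there is 1 library per group. Depth is unknown, so precision at low FPKM cannot be stated.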
